A study of Rattus norvegicus with 18 samples.

Results

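Older and young female Sprague-Dawley rats were compared at all 6 times of a femoral fracture study, 6 arrays titled Older against 6 titled young, each pair taken at the same time. These are 12 of the 18 arrays of the series, the other 6 being of adult rats. Young rats were 6, adult rats 26 and older rats 52 weeks of age when the left femur received an intramedullary rod and, except in the sham controls with no fracture (called intact here), a closed transverse fracture. The segment around the fracture site, which holds callus, cortical bone and marrow together, was taken at 3 days and at 1, 2, 4 and 6 weeks. Each Affymetrix rat expression array carried RNA pooled from 2 rats, and 1 array was available here per age and time. The 6 times therefore take the place of replicates, and the p-values measure how steady an age difference was from one time to the next. Values are array signals, a linear measure of mRNA abundance on a scale of arbitrary units, and differences are given as older minus young on the log2 scale.

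A fractured long bone heals mostly through a callus. A blood clot and inflammation are followed by soft cartilage, which is replaced by woven bone and then remodelled by osteoclasts, the bone-resorbing cells. Osteoblasts make the collagen-rich bone matrix and secrete osteocalcin, encoded by Bglap. The marrow between the bone walls makes blood cells, including B cells and neutrophils, and skeletal muscle adheres to the outside of the femur. In rats, as in people, healing slows with age.

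The 12 arrays had similar depth of signal, with 14.9% to 20.1% of 8740 probe sets below a signal of 20. Median signals ran from 133 in the older intact array to 165 in the young 4-week array. Older and young arrays of the same time correlated at r = 0.953 (6 weeks) to 0.976 (1 week) across probe sets, which are not independent replicates. The share of probe sets differing by more than 1 on the log2 scale ranged from 6.11% at 3 days to 14.2% at 6 weeks, with 12.2% in intact femora. As a sign of RNA quality, the 3′/5′ ratio of actin differed between older and young rats by -0.10 ± 0.22 on the log2 scale (SD, n = 6 times, 2-sided exact permutation p = 0.281). For GAPDH the difference was -0.33 ± 0.43 (n = 6 times, exact permutation p = 0.0625, where the smallest possible is 0.0312). The young 6-week array stood apart, with a GAPDH ratio of 3.78 against 1.69 in older rats. The bone marker Bglap ran from 4351 to 20088 and skeletal actin (Acta1) from 13540.1 to 30659.7 over the 12 arrays. Other markers of bone and muscle fell further on some arrays. The muscle gene Pvalb had 165.4 in older and 392.5 in young rats at 3 days. The bone collagen gene Col1a1 had 2520.8 in the older and 22884.1 in the young intact femur.

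Over all 6 times a small set of genes separated older from young rats. Among those higher in older rats were Myf6, Flnc and other genes made in muscle fibres, and among those lower were osteocalcin, the bone protein RoBo-1, Cd72 and Vav1. In lists of related genes, 0 of 32 in a contractile muscle list, 1 of 26 in a muscle stress list and 0 of 6 in a B cell list were called. Since 0.253% of all genes were called higher and 0.296% lower, such counts cannot show whether a list moved as a whole. By limma 39 of 8740 probe sets passed an adjusted p below 0.05 (0.446%) and are termed called here, 18 higher and 21 lower in older rats. At the level of genes, each read by its brightest probe set, 12 of 4736 were called higher (0.253%) and 14 lower (0.296%). Of the 39 probe sets, 32 name a single gene and stand for 30 genes, 1 names several genes and 6 name none. The difference had the same sign at all 6 times for 37 of the 39, which follows in part from the calling. These calls depended on the adult arrays, which help to estimate the spread. With the 12 older and young arrays alone, paired by time, limma called 0 probe sets, though 1101 had an unadjusted p below 0.05, and with the actin ratio as a covariate of all 18 arrays 4. Median centring gave 64, of which 68.8% were higher in older rats against 46.2% of the 39. Without the arrays of 1 time the count was 30 (no fracture), 13 (3 days), 5 (1 week), 2 (2 weeks), 4 (4 weeks) or 3 (6 weeks).

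**Figure D1:**
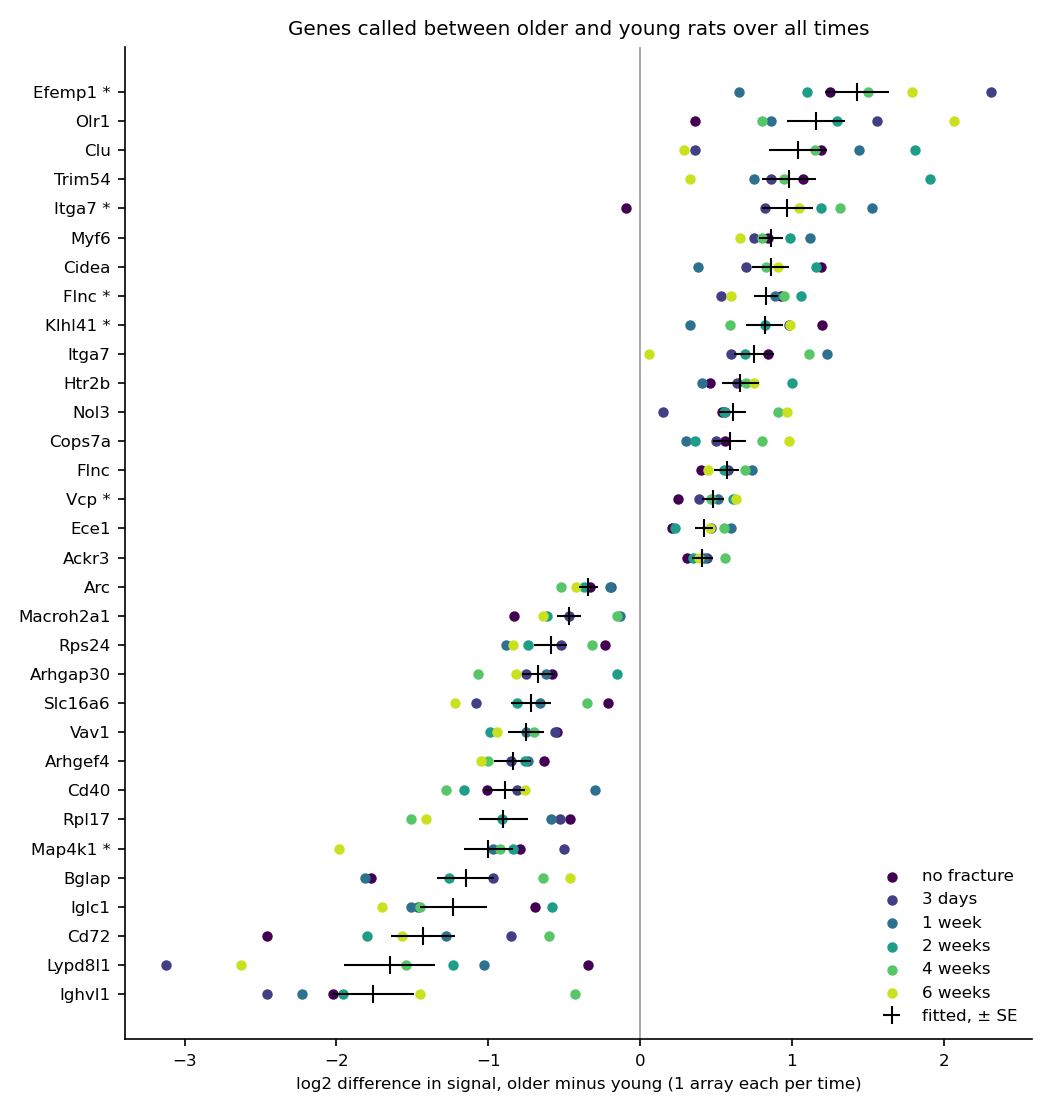
Older minus young log2 difference in signal (horizontal axis) of the 32 called probe sets that name a single gene (vertical axis), one point per time and the fitted difference ± SE as a black mark. An asterisk marks a probe set that is not the brightest of its gene. Points of 31 probe sets lie on one side of 0, and Itga7 has 1 intact point at -0.09.

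The muscle genes were among the steadiest differences. Myf6 (probe set M27151_at), a transcription factor of the MyoD family that is made in muscle fibres, had signals of 329 to 809 (median 449.9) in young rats and 653 to 1762 (median 750.2) in older rats. At each time the older array exceeded the young one, by 0.66 to 1.12 on the log2 scale, although the ranges overlap because the signal peaked at 1 week at both ages. The fitted log2 difference was 0.86 ± 0.08 (SE), or 1.82-fold higher (adjusted p = 0.0029). Flnc, the filamin of the muscle Z-disc, had signals of 1324 to 2157 (median 1884) in young rats and 1979.5 to 3470.2 (median 2585) in older rats on its brighter probe set. It was 1.48-fold higher there (adjusted p = 0.0307) and 1.77-fold higher on the dimmer one (adjusted p = 0.00305). These were the most stable calls, since the dimmer Flnc probe set stayed called under 15 of 18 alternative analyses and Myf6 under 14 of 18.

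Other called genes of this group encode parts of the fibre or of its attachment. Trim54, a ubiquitin ligase of the sarcomere, had signals of 426 to 1273 (median 1017) in young rats and 1221 to 2148 (median 1769) in older rats. The lowest value was the young 2-week array, 426 against 1596 in older rats, and the fitted difference was 0.98 ± 0.18 (adjusted p = 0.0477). Itga7, the laminin receptor chain of muscle, was 1.69-fold higher on its brightest probe set (adjusted p = 0.0446), with signals of 670.1 to 1288 (median 938) in young rats and 1095 to 3013 (median 1511) in older rats. Klhl41, a protein of sarcomere assembly, was called on its dimmer probe set (1.76-fold higher, adjusted p = 0.0307), while the brighter one had a log2 difference of 0.75 (adjusted p = 0.135). Nol3, an inhibitor of cell death that is abundant in muscle and heart, was 1.53-fold higher (adjusted p = 0.0341). Signals of its older arrays, 468 to 761, overlapped those of the young arrays, 321 to 507.

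The 250 bases upstream of the RefSeq start are shown for the muscle genes called higher that hold CAGCTG, the core of the E-box bound by factors of the MyoD family, to which Myf6 belongs. CAGCTG, the same on both strands, is in capitals. The windows are chr3:74841868-74842117, forward strand for Klhl41 and chr6:30978476-30978725, reverse strand for Trim54 (GRCr8).
Klhl41: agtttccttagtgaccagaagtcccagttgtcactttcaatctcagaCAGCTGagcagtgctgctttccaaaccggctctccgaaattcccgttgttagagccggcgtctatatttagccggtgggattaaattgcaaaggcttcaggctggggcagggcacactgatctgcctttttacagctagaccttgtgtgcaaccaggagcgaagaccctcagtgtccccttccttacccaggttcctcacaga
Trim54: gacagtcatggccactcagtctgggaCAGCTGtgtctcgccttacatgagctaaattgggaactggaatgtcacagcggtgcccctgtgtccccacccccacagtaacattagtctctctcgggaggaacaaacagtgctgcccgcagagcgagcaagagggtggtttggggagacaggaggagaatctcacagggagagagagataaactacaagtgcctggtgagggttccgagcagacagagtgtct
The sequence lies 203 bases before the start in Klhl41 and 224 in Trim54. Of the 6 muscle genes called higher, 4 have an entry in the RefSeq promoter table, and 2 of these windows hold the motif. Among all 27457 promoters of that source, 11.9% hold it, and so do 3 of 12 promoters of genes called higher and 3 of 10 of genes called lower. A match describes these letters only.

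The wider muscle lists did not move as one. In a list of 26 genes of muscle stress, regeneration and embryonic muscle, 10 were higher in older rats at all 6 times, against 3.59% of all 4736 genes. The median log2 difference of that list was 0.40 (all genes -0.02) and 1 member, Myf6, was called higher. The others on one side at all times were Ankrd1, Chrna1, Chrnb1, Chrne, Des, Hspb1, Myl4, Myod1 and Myog. In intact femora the median of this list was 0.48, but its member Ncam1, an adhesion protein gene, was lower in older rats (-2.92). Myog, the factor that drives fusion of myoblasts, had a difference of 1.21 (adjusted p = 0.118). Its older signals were 193 in intact femora and 1958 at 1 week, against 77.2 and 446 in young rats. Myl4, the embryonic myosin light chain, had 1.46 (adjusted p = 0.0976). The mature contractile list (32 genes) had a median difference of 0.03, whose sign changes without the intact or the 3-day arrays or with a mean signal of at least 500. None of its members was called. Summed over that list, signals were 69632 to 225424 (median 175270.0) in young and 64521 to 225570.0 (median 166897) in older rats, lower in older rats at 4 of 6 times. Creatine kinase (Ckm) had a difference of -0.28 and skeletal actin (Acta1) of -0.30, neither called. Summed signals of mature muscle genes, in which the brightest genes weigh most, were not steadily on one side. Myf6 and Flnc were higher in older rats at each time. The part of muscle content in the called genes was not tested.

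The other genes called higher have varied roles. Efemp1, an extracellular matrix protein of the fibulin family, was called on its dimmer probe set, with signals of 10.6 to 37.9 (median 27.3) in young rats and 47.5 to 118 (median 66.2) in older rats. All 6 older arrays lay above all 6 young arrays (2.7-fold higher, adjusted p = 0.0307). The brighter probe set had a log2 difference of 1.40 (adjusted p = 0.0941). Cidea, a lipid droplet protein of fat cells, also had no overlap, with signals of 76.7 to 156 (median 132) in young rats and 171 to 262 (median 213) in older rats (1.81-fold higher, adjusted p = 0.0307). Among all 4736 genes 10 (0.211%) had every older array above every young one, and 6 (0.127%) the reverse. Clu, the secreted chaperone clusterin, had signals of 1141 to 3429 (median 1668) in young rats and 2103 to 9282 (median 2797) in older rats, and its highest value was the older 1-week array. Clu was 2.05-fold higher (adjusted p = 0.0456). Olr1, a scavenger receptor for oxidised lipoprotein, was 2.23-fold higher (adjusted p = 0.0367), from low signals of 25.8 to 69.7 (median 52.4) in young rats and 55.1 to 160.5 (median 108) in older rats. Differences of 0.41 to 0.66 were called for the serotonin receptor Htr2b (0.66), the signalosome subunit Cops7a (0.59), the protein-unfolding enzyme Vcp (0.48, dimmer probe set, the brighter one having 0.40 and no call), the endothelin-converting enzyme Ece1 (0.42) and the chemokine receptor Ackr3 (0.41).

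Osteocalcin was lower in older rats. Bglap (probe set M25490_at) had signals of 10142 to 20088 (median 18488) in young rats and 4351 to 13099 (median 6980.4) in older rats. The ranges overlap because young rats had their lowest value at 3 days and older rats their highest at 6 weeks, but the older array was lower at every time. The gap was widest at 1 week (-1.81) and in intact femora (-1.77) and narrowest at 6 weeks (-0.46). The fitted difference was -1.15 ± 0.19, or 2.22-fold lower (adjusted p = 0.0432). Adult rats had 6592 in intact femora and 18555 at 4 weeks. The window upstream of Bglap (chr2:176137319-176137568, reverse strand, GRCr8) is shown because osteocalcin is a classic target of the osteoblast factor RUNX2. In capitals are AACCACA, a RUNX site, CAGCTG and TATAAA.
Bglap: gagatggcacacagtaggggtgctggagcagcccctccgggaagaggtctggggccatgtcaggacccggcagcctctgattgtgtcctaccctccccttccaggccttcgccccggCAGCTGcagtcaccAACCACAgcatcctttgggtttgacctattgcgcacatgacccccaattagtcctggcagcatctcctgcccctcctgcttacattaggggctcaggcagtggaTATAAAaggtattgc
AACCACA begins 119 bases before the start. On either strand it is in 4.54% of all promoters, and TATAAA in 13.1%. Of the 10 genes called lower with an entry, Bglap is the 1 that holds AACCACA.

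Lypd8l1 is the symbol the annotation gives to the probe set of RoBo-1 (AF041083_at), a protein of bone and growth plate cartilage. Signals were 431 to 12909.7 (median 1391) in young rats and 176 to 10214 (median 365) in older rats. The ages were closest in intact femora, 10214 in older and 12909.7 in young rats. After fracture they ran 431 to 4307 in young and 176 to 694 in older rats, with the older array below the young one at each time. The difference was widest at 3 days (-3.12) and at 6 weeks (-2.63). Over all times it was -1.65 ± 0.30 (adjusted p = 0.0477), and over the fractured times -1.91 ± 0.28 (adjusted p = 0.0433). The difference between fractured and intact femora was itself not called (-1.57, adjusted p = 0.343).

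Some of the other genes called lower are known from B cells or from signalling in blood cells. None of the 6 members of the B cell and plasma cell list was called over all times (0.296% of all genes were called lower). All 6 had a fitted difference below 0. Cd72, a B cell coreceptor, had signals of 159 to 2256 (median 802) in young rats and 67.4 to 904 (median 249.6) in older rats. The older array was lower at all 6 times, and the fitted difference was -1.43 ± 0.21 (2.69-fold lower, adjusted p = 0.0309). Ighvl1, an immunoglobulin heavy chain gene, had 161 to 3857 (median 1224) in young rats and 29.3 to 1776 (median 304) in older rats and was 3.38-fold lower (adjusted p = 0.0341). Immunoglobulin probe sets can share sequence with related genes, so which gene was measured is uncertain. The light chain gene Iglc1 was 2.35-fold lower (adjusted p = 0.0456), and Cd40, the costimulatory receptor of B cells, 1.85-fold lower (adjusted p = 0.0307) at signals of 45.7 to 152 (median 85.9) in young rats and 25 to 90 (median 41.7) in older rats. Vav1, the guanine nucleotide exchange factor of blood cells, fell by 0.75 and the kinase Map4k1 (dimmer probe set) by 1.00 on the log2 scale. The brighter Map4k1 probe set had -0.51 (adjusted p = 0.131). Arhgap30 had -0.67. Arhgef4, another exchange factor, showed no overlap, with 90.6 to 128 (median 110.0) in young rats and 50.1 to 75.4 (median 60.2) in older rats (adjusted p = 0.0307). In pooled tissue, fewer cells of a type and less RNA per cell cannot be told apart.

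A probe set that matches several mast cell protease genes (U67911_s_at, among them Mcpt8, Mcpt9 and Mcpt10) was lower in older rats as well. Its signals were 189 to 8686 (median 1571) in young rats and 60.2 to 10385 (median 468) in older rats. The intact older array was the highest of all 12, and the older array was lower at each of the 5 fractured times (-1.80 ± 0.10, adjusted p = 0.000184). The fractured minus intact difference was called as well (-2.05, adjusted p = 0.00135). Also called lower were the ribosomal protein genes Rpl17 (-0.90) and Rps24 (-0.59), the transporter Slc16a6 (-0.72), the histone variant Macroh2a1 (-0.47) and the neuronal immediate early gene Arc (-0.34). Arc signals were 354 to 453 in young and 279 to 338 in older rats, which do not overlap.

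**Figure D2:**
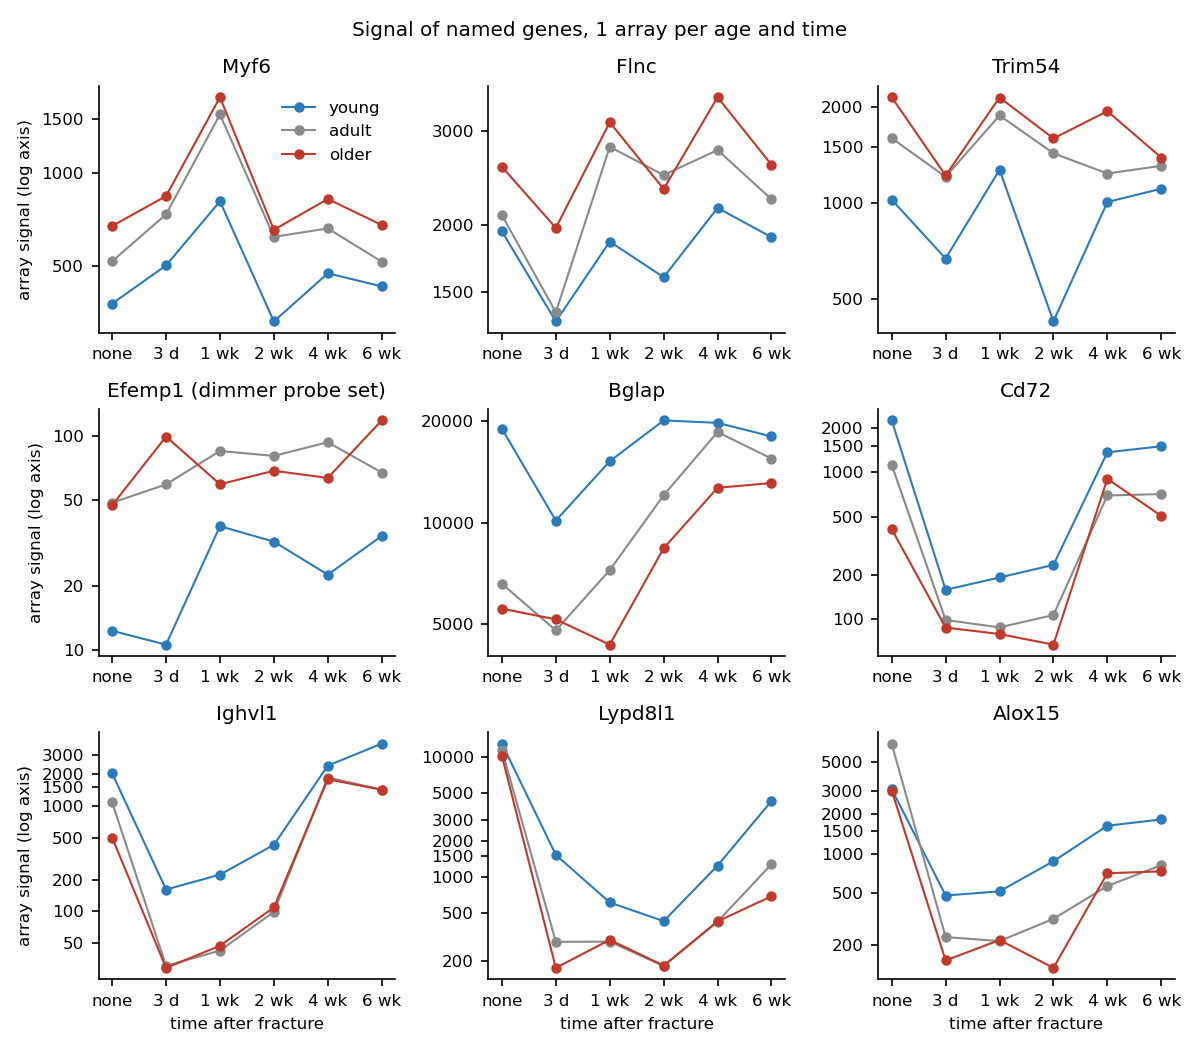
Array signal (vertical log axis) of 9 named genes at each time after fracture (horizontal axis, none is the intact femur) in young, adult and older rats, 1 array per point with no error bar. Myf6, Flnc, Trim54 and Efemp1 lie higher and Bglap, Cd72, Ighvl1 and Lypd8l1 lower in older than in young rats at each time. For Alox15 the intact values of young and older rats nearly coincide and the older values lie lower after fracture.

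The marrow lists showed the same side. Neutrophil genes had a median difference of -1.07 (9 genes), erythroid genes of -0.72 (16) and B and plasma cell genes of -0.48 (6). In intact femora these medians were 0.08, 0.34 and -1.0, so that neutrophil and erythroid genes had no lower median before fracture. Of the neutrophil genes 4 of 9 were lower at all 6 times, against 3.84% of all genes, but none was called over all times. S100a8, a calcium-binding protein of neutrophils, had 14295 in intact older and 15106 in intact young femora. At 3 days it had 303 against 4898, and at 6 weeks 2174 against 11871. Its difference over the fractured times was -2.35 (adjusted p = 0.0596). The defensin Defa5 had -2.13 (adjusted p = 0.0735). Summed signals of the neutrophil list were 4126 to 66256 (median 23846) in young and 1519 to 58402 (median 5052) in older rats, lower in older rats at all 6 times, and those of the erythroid list lower at 5 of 6.

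The osteoclast list (8 genes) departed from the rest by its timing. Its median difference was -0.45 in intact femora, -2.12 at 3 days and -1.99 at 1 week, and -0.25, -0.12 and 0.03 at 2, 4 and 6 weeks. Mmp9, a gelatinase of osteoclasts and neutrophils, had 53.8 in older and 3886 in young rats at 3 days. By 2 weeks it had 9194 and 11159.8. Acp5, the tartrate-resistant phosphatase, had 407 against 5147 at 3 days and 1815 against 12478 at 1 week. Ctsk, the collagen-degrading cathepsin K, had 2063 against 10258 at 3 days. Adult arrays were also low at 3 days, at 62.9 for Mmp9, 499 for Acp5 and 1814 for Ctsk. Neutrophils also make Mmp9, and the neutrophil list, which does not hold it, had medians of -2.43 and -0.54 at 3 days and 1 week, and their part was not tested. No member was called over all times or over the fractured times, and single times, with 1 array per age, were not tested.

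**Figure D3:**
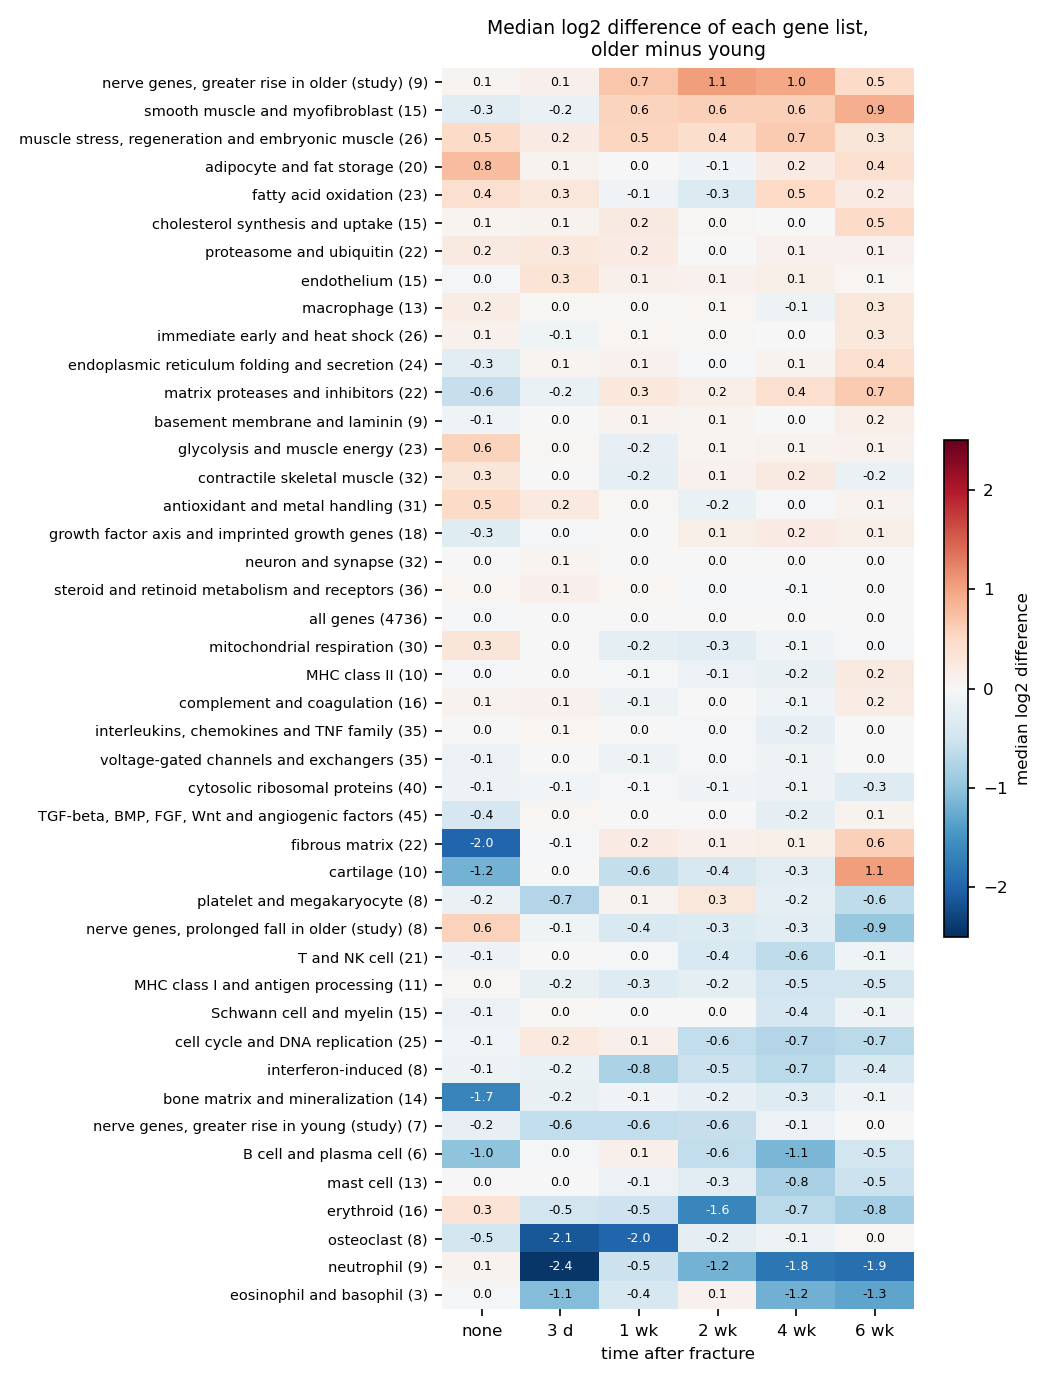
Median older minus young log2 difference in signal (colour and number) of each of 43 gene lists and of all genes (rows, number of genes in parentheses) at each time (columns, none is the intact femur). Lists are ordered by their median over all times. Along their rows, the fibrous and bone matrix lists have their lowest medians in intact femora (-1.99 and -1.67), and the osteoclast list has its lowest at 3 days (-2.12) and 1 week (-1.99). At 3 days the neutrophil list is lower still (-2.43).

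The intact femora differed in another set of genes, which included genes that build extracellular matrix. Most of the genes called there, and all of those higher in older rats, lay outside the fibrous, bone and cartilage matrix lists. Between the older and the young intact array 286 probe sets (3.27%) were called, 95 higher and 191 lower in older rats. At the level of genes 46 were higher (0.971%) and 99 lower (2.09%). There is 1 intact array per age, and its error is taken from the other arrays by assuming that it varies like them. The 12 arrays paired by time gave 180, and median centring 260, of which 56.9% were higher against 33.2% of the 286, with all genes shifted by 0.23. In the fibrous matrix list 12 of 22 genes were called lower, in the bone matrix list 6 of 14 and in the cartilage list 2 of 10, and none was called higher. The median differences were -1.99, -1.67 and -1.18, against -0.03 for all genes. The actin 3′/5′ ratio of the 2 intact arrays was alike, 2.59 in older and 2.61 in young rats. Their median signals were 133 in older and 155 in young rats, and the older one was the lowest of the 12 arrays.

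Col11a1, a chain of cartilage type XI collagen, gave 63.1 in the older and 1735 in the young intact femur (-4.78 ± 0.33, adjusted p = 3.05e-05). Lox, the enzyme that cross-links collagen, gave 189 and 1349.6 (-2.84, adjusted p = 0.000119). Col1a1, the main chain of bone collagen, gave 2521 and 22884 (-3.18, adjusted p = 0.000333). Adult intact femora lay between, at 129 for Col11a1, 268 for Lox and 6846 for Col1a1. Lower by 2 or more on the log2 scale were also the collagens Col5a2 (-3.31) and Col3a1 (-2.40), the proteoglycan Dcn (-3.17), periostin (Postn, -2.77), tenascin C (Tnc, -3.09), the collagen chaperone Serpinh1 (-2.90) and Sparc, a collagen-binding protein of bone (-2.25). Acan, the core protein of aggrecan, had -4.00, the growth regulator Cgref1 -4.10, the peroxidase Gpx7 -3.67 and the receptor Fgfr1 -3.97 on a dimmer probe set. The brightest Fgfr1 probe set had -2.21 (adjusted p = 0.0519). Of the collagen-modifying enzymes in the fibrous matrix list, Plod1 (-0.23, adjusted p = 1.0), Plod2 (-1.68, adjusted p = 0.0966) and Plod3 (-0.58, adjusted p = 0.791) were not called. The list of endoplasmic reticulum folding and secretion, which holds Serpinh1, had a median of -0.29 over its 24 genes in intact femora.

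Genes called higher in the intact older femur were led by Sncg, a synuclein of nerve and fat, with 1052 against 58.7 (4.16 ± 0.56, adjusted p = 0.00358). The retinoid receptor Rxrg had 3.36 and the small heat shock protein Hspb2 2.65, both on dimmer probe sets. The brightest Hspb2 probe set had 0.02. The liver form of glycogen synthase, Gys2, had 2.32 and the gap junction protein Gja5 2.32 (dimmer probe set), from low young signals. The brightest probe sets of Rxrg (1.23, adjusted p = 0.0942) and Gja5 (0.26, adjusted p = 0.974) were not called. In the list of fat cells and fat storage 2 of 20 genes were higher (Acaca, 1.82, and Me1, 0.63) and 1 lower (Scd2, -1.44), with a median of 0.78, against 0.971% of all genes called higher and 2.09% lower. Among 45 genes of growth factors and their receptors 3 were called lower, Fgfr2 (-3.04), Ptn (-3.41) and Tgfb3 (-2.37), against the same 2.09%.

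After fracture the medians of the fibrous and bone matrix lists were smaller. At 3 days and 1, 2, 4 and 6 weeks the fibrous matrix median was -0.05, 0.21, 0.12, 0.15 and 0.60, and the bone matrix median -0.18, -0.08, -0.21, -0.32 and -0.12. Col11a1 at 3 days had 2011 in older and 1956 in young rats, and Lox 5668 and 5499. None of the 22 fibrous matrix, 14 bone matrix and 10 cartilage genes was called over the fractured times, but single members lay apart. Bglap had -1.03 (adjusted p = 0.0627) and Comp, a cartilage matrix protein, 1.12 (adjusted p = 0.277). The test of the difference itself, fractured minus intact, called 280 probe sets (3.2%), 189 positive and 91 negative. At the level of genes these were 98 (2.07%) and 39 (0.823%), and they include 13 fibrous matrix, 6 bone matrix and 2 cartilage genes, all positive. The intact comparison and this one rest on the same 2 intact arrays, so they are not independent. Paired by time, the 12 arrays gave 167, and median centring 215 with 52.6% positive against 67.5%. The values were 4.78 ± 0.85 for Acan, 4.52 ± 0.37 for Col11a1, 4.28 ± 0.54 for Cgref1 and 4.13 ± 0.35 for Gpx7 (SE). Over all 6 times together the fibrous matrix median was -0.14, and 0.26 without the intact arrays. The cartilage list reached 1.05 at 6 weeks. Its collagen Col2a1 then had 5698 in older, 4431 in adult and 262 in young rats, and Comp 1531, 474 and 162. At 2 weeks Col2a1 had 6999 in older and 11099.8 in young rats. The 6-week values rest on the young array whose GAPDH ratio stood apart.

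**Figure D4:**
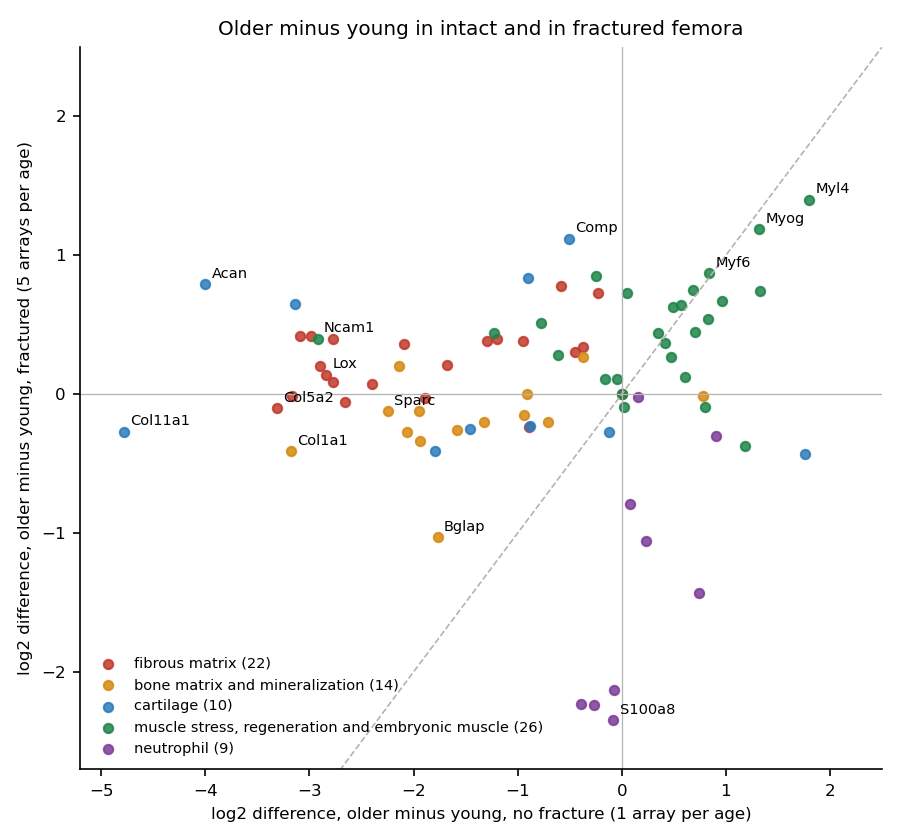
Older minus young log2 difference in signal in intact femora (horizontal axis, 1 array per age) against the fitted difference over the 5 fractured times (vertical axis, 5 arrays per age) for the genes of 5 lists, 1 point per gene, with a dashed line where both are equal. Fibrous matrix genes spread far to the left but lie between -0.24 and 0.78 vertically, most neutrophil genes lie near 0 horizontally and below 0 vertically, and Myf6, Myog and Myl4 lie near the line.

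**Figure D5:**
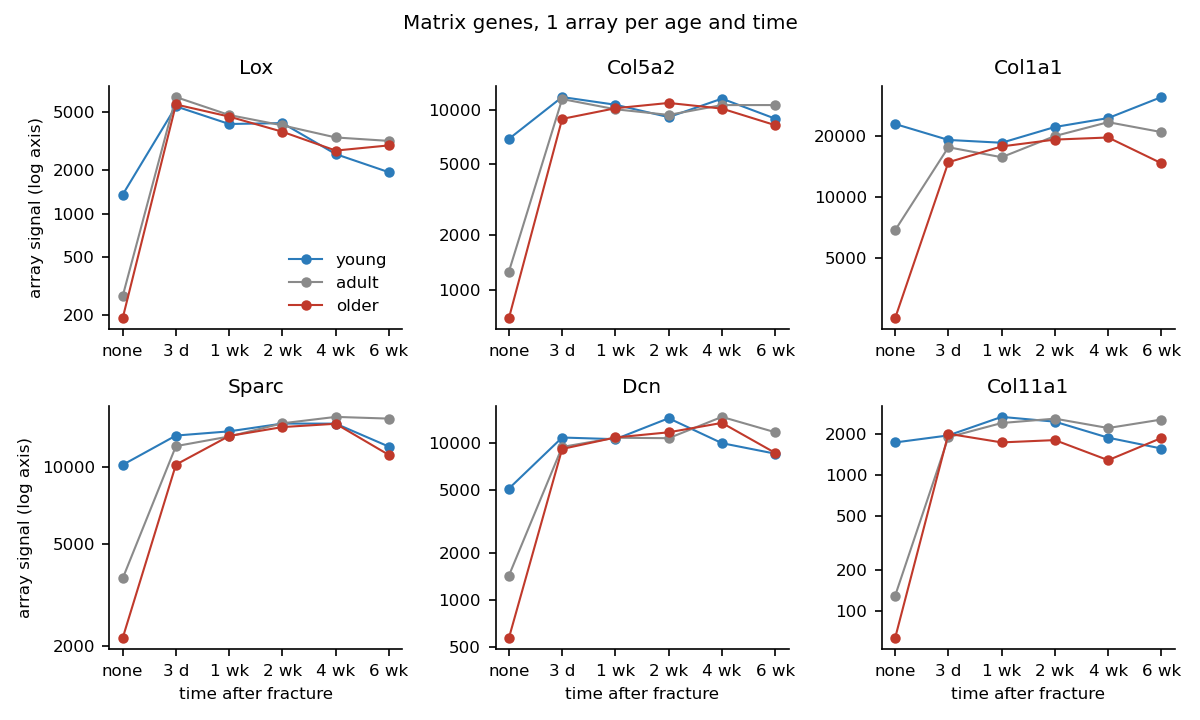
Array signal (vertical log axis) of 6 matrix genes at each time after fracture (horizontal axis, none is the intact femur) in young, adult and older rats, 1 array per point with no error bar. The intact values fall in the order young, adult, older, from 22884 to 2521 for Col1a1, and the 3 ages lie close together at 3 days.

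Over the 5 fractured times 32 probe sets (0.366%) were called, 15 higher and 17 lower in older rats, or 9 genes higher (0.19%) and 11 lower (0.232%). The count was 100 without 3 days, 5 without 1 week, 8 without 2 weeks, 2 without 4 weeks and 5 without 6 weeks. It was 2 with the 12 arrays paired by time and 124 with median centring, 57.3% of them higher against 46.9%. Pdk4, the kinase that turns off pyruvate dehydrogenase when fat is burnt, ran 15.5 to 236 in young and 169 to 505 in older rats. It was 6.53-fold higher (adjusted p = 0.0433), and the older array was higher at each of the 5 times. The prostaglandin transporter Slco2a1 ran 141 to 313 in young and 300.2 to 660.3 in older rats (1.98-fold higher, adjusted p = 0.0497). Itgb4, the integrin chain of basement membrane attachment, ran 104 to 179.8 in young and 219 to 447 in older rats (2.28-fold, adjusted p = 0.0497). A dimmer probe set of Itga7 was 2.27-fold higher (adjusted p = 0.00443), with a call kept under 11 of 13 alternatives, and the brightest had 0.74 (adjusted p = 0.0641). In intact femora none of these 4 was called. The fractured minus intact difference was called for the Itga7 probe set (adjusted p = 0.0266) and not for Pdk4 (adjusted p = 0.329), Slco2a1 (adjusted p = 0.0591) or Itgb4 (adjusted p = 0.343).

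Genes of marrow cells were called lower over the same times. Alox15, the lipoxygenase of eosinophils and macrophages, ran 481 to 1829 in young and 135 to 735 in older rats after fracture, and was 3.08-fold lower (adjusted p = 0.0407). The older array was below the young one at each time, and the intact arrays had 3039.5 and 3116. Hba-a3, an alpha globin gene, was 3.57-fold lower (adjusted p = 0.0497), but globin genes share sequence and may share signal. The mast cell and basophil receptor chain Ms4a2 was 2.24-fold lower (adjusted p = 0.0497), and the platelet chemokine Pf4 had -0.92 (adjusted p = 0.0497). These lists had 1 member called lower each, of 3 eosinophil and basophil, 16 erythroid, 13 mast cell and 8 platelet genes. Over the same times 0.232% of all genes were called lower. In the same order the list medians over the fractured times were -1.62, -0.97, -0.48 and -0.16. In the platelet list 3 of 8 members were above 0 over all times.

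The nerve-related genes that the study grouped by their course after fracture were read on the same arrays. Those lists were chosen by the study on data that include these arrays, so their direction is no independent evidence. Genes listed for a greater rise in older rats had a median difference of 0.60 over 9 genes, 3 of them higher at all 6 times, and none was called over all times. A rise after fracture is closer to the fractured minus intact difference, whose median was 0.55 for this list. The early gene ania-4, which the study drew, had 2.81 there, with -1.76 in intact femora and 1.06 over the fractured times. These differences rest on 1 intact array per age. Thbs4, a thrombospondin, ran 698 to 1567 in young and 1954 to 3927 in older rats after fracture (1.18, adjusted p = 0.0641). Spon1, the floor plate protein F-spondin, ran 216 to 367 in young and 212 to 771 in older rats (0.83, adjusted p = 0.144). Genes listed for a greater rise in young rats had a median of -0.47 over 7 genes, which is a difference in level. For fractured minus intact, which is closer to a rise, their median was -0.07. The phosphatase Ptprz1 had -1.11 over all times (adjusted p = 0.118) and was lower in the intact older femur, 49.4 against 279 (adjusted p = 0.0456). Over the fractured times Ptprz1 had -0.83, and for fractured minus intact 1.67, so on these arrays it rose more in older rats, against its listing. The kinase gene Cdk18 had -0.52 over all times, which turned to 0.11 without 1 week. At 1 and 2 weeks, where the study compared the ages for it, Cdk18 had -3.65 and -0.54. Genes listed for a prolonged fall in older rats had a median of -0.20 over 8 genes, which turned positive without 1 week. The study judged that list by its return toward levels before fracture, which a difference over all times does not measure. The median was 0.57 in intact femora, -0.28 at 4 weeks and -0.94 at 6 weeks. Over the fractured times it was -0.34, and for fractured minus intact -1.54. RoBo-1 above was the 1 member called over all times. Neurogranin (Nrgn) had -1.82 after fracture (adjusted p = 0.0773), with 74.8 in older and 453 in young rats at 6 weeks. Neuropeptide Y (Npy) had -0.42 (adjusted p = 0.15). Sncg of the same list was higher in older rats at all 6 times (1.74 over all times, adjusted p = 0.0941). Its fractured minus intact difference was -2.9, so its excess in older rats was smaller after fracture.

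Wider lists of nerve and other cells had smaller medians than the neutrophil and osteoclast lists. Over all times the median was -0.26 for Schwann cell and myelin genes (15), -0.25 for T and NK cells (21), -0.25 for MHC class I (11), 0.10 for macrophages (13), 0.12 for endothelium (15) and -0.49 for mast cells (13). Smooth muscle and myofibroblast genes had 0.52 (15), with 14 of 15 above 0 and none called. The desmin gene Des had 0.84 (adjusted p = 0.0726) and the smooth muscle myosin Myh11 0.82 (adjusted p = 0.109). The 8 interferon-induced genes had a median of -0.40, and Rsad2, an antiviral enzyme, had -1.86 after fracture (adjusted p = 0.0641). Its signals at 2 weeks were 158 in older and 1581 in young rats. Genes of the cell cycle had a median near 0 until 1 week and of -0.61, -0.74 and -0.67 at 2, 4 and 6 weeks, with none of 25 called. Of 40 cytosolic ribosomal protein genes 9 were lower at all 6 times (3.84% of all genes were) and 2 called lower (0.296% of all genes), at a median of -0.09. Of 22 proteasome and ubiquitin genes all had a fitted difference above 0 (median 0.13), and none was called. Fat cell, fatty acid oxidation and cholesterol lists had medians of 0.23, 0.19 and 0.19, and the glycolysis list 0.07.

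For the genes called over all times, adult rats mostly lay between the other ages and nearer to the older ones. The mean of the 6 adult arrays lay between the young and older means for 34 of the 39 called probe sets. On a scale from 0 (young) to 1 (older) the median adult position was 0.70, with 25% of positions below 0.58 and 25% above 0.86, and 32 of 39 were nearer to older. The adult arrays took part in the calling, as they help to set the spread and the course over time, so this is a description. For the 286 probe sets called in intact femora the median position was 0.67, 184 were nearer to older and 181 lay between. Of the 95 higher in older rats 44 lay between, and of the 191 lower 137. By Pearson r of log2 signals centred on each time, the genes most like Myf6 over the 12 arrays were Flnc (0.98), Ackr3 (0.96) and Il33 (0.96). Il33, a cytokine released from damaged cells, had a log2 difference of 1.22 (adjusted p = 0.0506). The genes most like Arhgef4 were Vav1, B4galnt1 and Iglc1 (0.97 each). These values describe 6 pairs of arrays in which the centred values of a pair mirror each other.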

How the data were processed

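mRNA was measured on 18 Affymetrix rat arrays, with RNA of 2 rats pooled on each and a single array for every age at every time. The study's methods describe 3 arrays per group, and the others were not analysed here. The deposited values are linear intensities, which the authors computed as MAS 5.0 signals and scaled to an average of 500 per array; no detection calls were used here. The 59 control probe sets were left out of 8799. Signals below 20 were set to 20 and log2 was taken, so fold changes of dim probe sets are understated. No library depth exists for arrays, and the number of arrays limits the precision.

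Each of 8740 probe sets was fitted with limma 3.58.1 (R 4.3.3) on time and age over all 18 arrays, with a trend in the moderation and Benjamini-Hochberg adjustment over all probe sets. The threshold for a call was an adjusted p of 0.05. A second fit separated age in intact and fractured femora, and their difference. The labels name no batch. Scripts were tested on simulated data.

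Of 8740 probe sets 7006 name 1 gene in the platform annotation, 308 several and 1426 none, for 4736 genes, each read by its brightest probe set. The identifiers of 6985 of the 7006 were in RefSeq's GRCr8 table, which changed no symbol. Of 30 called genes 22 had a promoter entry.

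Genes named were the 15 highest and 15 lowest called over all times with 1 sign at 5 or more times, the 5 highest and lowest called in each other comparison, up to 4 per list by size, the nerve genes drawn by the study and the 3 nearest in pattern to the leading genes. Further list members and the genes of the osteoclast, cartilage and matrix paragraphs were chosen after their values were seen. The members and the 43 lists were chosen with earlier results of these data known. Lists are described by counts and medians, with no test. Alternatives were median centring or quantile normalization, log2(signal + 50) or a floor of 100, mean signal filters of 200 and 500, no trend, a covariate for the actin 3′/5′ ratio, each time left out, the 12 arrays alone with and without pairing, and the methods' t-test.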

Additional observations from a re-analysis of the deposited data

Results flagged for a closer look

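For 280 probe sets, limma's test of the difference between fractured and intact femora passed an adjusted p below 0.05, so that the older minus young difference was not the same in both. These probe sets name 209 genes, and the 10 given here are the 5 highest and the 5 lowest. The values, fractured minus intact on the log2 scale, were 4.78 for Acan, 4.73 for a dimmer probe set of Fn1, 4.52 for Col11a1, 4.28 for Cgref1 and 4.13 for Gpx7, and -3.72 for a dimmer probe set of Rxrg, -2.90 for Sncg, -2.7 for the interferon regulator Irf7, -2.37 for a dimmer probe set of Gja5 and -2.20 for Gys2. The brightest probe sets of Fn1 (1.59, adjusted p = 0.302), Rxrg (-1.16, adjusted p = 0.149) and Gja5 (-0.55, adjusted p = 0.657) were not called. All rest on 1 intact array per age. Irf7 had 2231 in the older, 2409 in the adult and 556 in the young intact femur.

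Among 32 called probe sets examined, 1 had a time far from its other 5. Map4k1 (dimmer probe set) differed by -1.98 at 6 weeks, on the young array whose GAPDH control ratio was 3.78. Chance flags about 1 in 20 such groups.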

How the results depend on the processing

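Of the 39 probe sets called over all times, those that were tested kept their direction under each alternative except 1 of 39 with a floor of 100. All signals of that 1 lay below 100, so its difference became 0 and did not reverse. With mean signals of at least 200 and 500, 30 and 21 were tested. The count moved to 64 with median centring, 8 with a floor of 100, 76 with log2(signal + 50), 135 and 86 with mean signals of at least 200 and 500, 4 with the actin ratio as a covariate, and 2 to 30 with 1 time left out. With the 12 arrays paired by time (time as the replicate block) it was 0, and with no replicate block also 0, where 1101 and 518 probe sets had an unadjusted p below 0.05. The methods' t-test gave 76 at their threshold and 0 after Benjamini-Hochberg (484 below 0.05 unadjusted). The 32 of the fractured times became 124, 17, 185, 308, 215 and 19 under the first 6 of these settings in the same order, 2 when paired, and 2 to 100 with 1 time left out. The 286 of intact femora became 153 with log2(signal + 50), 189 and 135 with the filters, 180 when paired and 188 to 403 with 1 fractured time left out (188 without 1 week). The 280 of the difference became 129, 131 with a mean signal of at least 500, 167 when paired and 149 to 354 (149 without 1 week). Median centring shifted all genes by 0.23 in intact femora and moved the share of calls higher in older rats from 33.2% to 56.9% there, from 46.2% to 68.8% over all times, from 46.9% to 57.3% over the fractured times and from 67.5% to 52.6% for the difference. Quantile normalization gave 45.4% in intact femora. With a floor of 100, 174 of the 286 intact calls kept their direction. The others had both intact signals at or below 100, so their difference became 0 and did not reverse. Of named genes, Cdk18 turned from -0.52 to 0.11 without 1 week (range -1.06 to 0.11 with 1 time left out) and Serpinh1 from -0.32 to 0.20 without no fracture (range -0.59 to 0.20). Named gene values kept their side of the threshold in 3250 settings, lost it in 549 and gained it in 68. The cause of these changes was not tested.

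Depth cannot be read from arrays. With 1 array per age and time no single time was tested, and signals near 20 carry little information.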
